A study of Canis lupus familiaris with 10 samples.

Results

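The let-7 family and its close relative miR-98 were described in lymph nodes of dogs with and without diffuse large B-cell lymphoma (DLBCL), a malignancy of mature B cells that is common in dogs. The members were chosen by name, as the rows of the read-count table called cfa-let-7 plus a letter and the row cfa-miR-98. This gave 8 of the 320 canine miRNAs listed, namely cfa-let-7a, cfa-let-7b, cfa-let-7c, cfa-let-7d, cfa-let-7e, cfa-let-7f, cfa-let-7g and cfa-miR-98. Small RNA from fresh-frozen nodes was sequenced with 1 library per dog, from 6 dogs with DLBCL (DLBCL1 to DLBCL6) and 4 healthy dogs (Healthy2 to Healthy5). The DLBCL nodes were biopsies taken under anesthesia from patient dogs of several breeds and both sexes, whose ages are not given in the sources used here. Their tumors were classified by histology and by staining for B-cell proteins, in most cases CD79a, with no staining for the T-cell protein CD3. The healthy nodes came from purpose-bred female hound crosses less than 1 year old that were euthanized in surgical teaching laboratories. Origin, breed and sampling follow the diagnosis, as sex does in part, and age may do so too. Their parts in any difference cannot be told apart.

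let-7 miRNAs were among the earliest miRNAs discovered, and their sequences have changed little between worms and mammals. The members share the seed, the stretch near the 5′ end that pairs with target mRNAs, and are known to repress growth and stem-cell genes such as RAS, MYC, HMGA2 and LIN28. LIN28 in turn blocks the maturation of let-7 precursors, and let-7 is commonly described as a tumor-suppressing and differentiation-linked family. The members are made from several genes, some of which are transcribed together with each other or with miR-99, miR-100 and miR-125 genes. The mature members differ from each other by very few bases, so the counting of reads could shift some of them from one member to another, and the level of any single member is uncertain to that extent.

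The 10 libraries held 10686441 to 25784861 miRNA reads in the DLBCL group and 30432969 to 34709421 in the healthy group. Levels are given as CPM, the reads of a miRNA scaled to a library of 1000000 reads, after TMM scaling, which sets libraries to a common level by the bulk of their miRNAs. Each member had at least 614 reads in each library, so counting error was small against the spread between dogs. The libraries also fell into 2 groups by Q30, the share of base calls of high quality listed with the study. The higher group held DLBCL1, DLBCL2, DLBCL3 and DLBCL5, and the lower group held DLBCL4, DLBCL6 and the 4 healthy libraries. All 7 listed lymphoid and blood cell markers, among them miR-150 and miR-155, were present in each library, with summed levels of 13183 to 28452 CPM in DLBCL and 22946 to 41207 CPM in healthy nodes. DLBCL3 had the highest sums of the 6 epithelial markers, at 199.1 CPM, and of the 2 muscle markers analysed, at 352 CPM. The other groups of markers are given beside the results they bear on.

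No member of the family was higher or lower in DLBCL nodes by the test used. With edgeR's quasi-likelihood test and adjustment over all 247 miRNAs tested, 0 of the 8 members had an adjusted p under 0.05 with a fold change over 2, where 5.67% of all miRNAs tested did. At an unadjusted p under 0.05 the count was again 0 of 8, where 26.7% of all miRNAs passed. DESeq2 called 0 of 8 members, against 15.0% of the 293 miRNAs for which it gave an adjusted p, and limma-voom called 0 of 8, against 18.6% of all tested. The smallest adjusted p of a member was 0.531 by edgeR, 0.634 by DESeq2 and 0.169 by limma-voom. The groups overlapped in CPM for each of the 8 members, while they did not overlap for 13.0% of all miRNAs tested. By edgeR the log2 fold changes of DLBCL over healthy nodes were positive for 4 members and negative for 4. Their median was -0.05, where the median over all miRNAs tested was 0.13. DESeq2 likewise gave 4 positive and 4 negative values, but limma-voom gave 1 positive and 7 negative. The largest edgeR change of a member in either direction, that of let-7c, was exceeded in size by 72.5% of all miRNAs tested.

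Most reads of the family came from 3 members. let-7f, let-7g and let-7a together made up 96.3% ± 1.46 (SD, n = 6) of the family's reads in DLBCL nodes and 96.2% ± 0.986 (SD, n = 4) in healthy nodes. Ranked by mean CPM among the 320 miRNAs listed, let-7f was number 4 and let-7g number 5 in both groups, and let-7a was number 12 in DLBCL and 9 in healthy nodes. The plot of levels by library shows these 3 members far above the remaining 5.

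**Figure D1:**
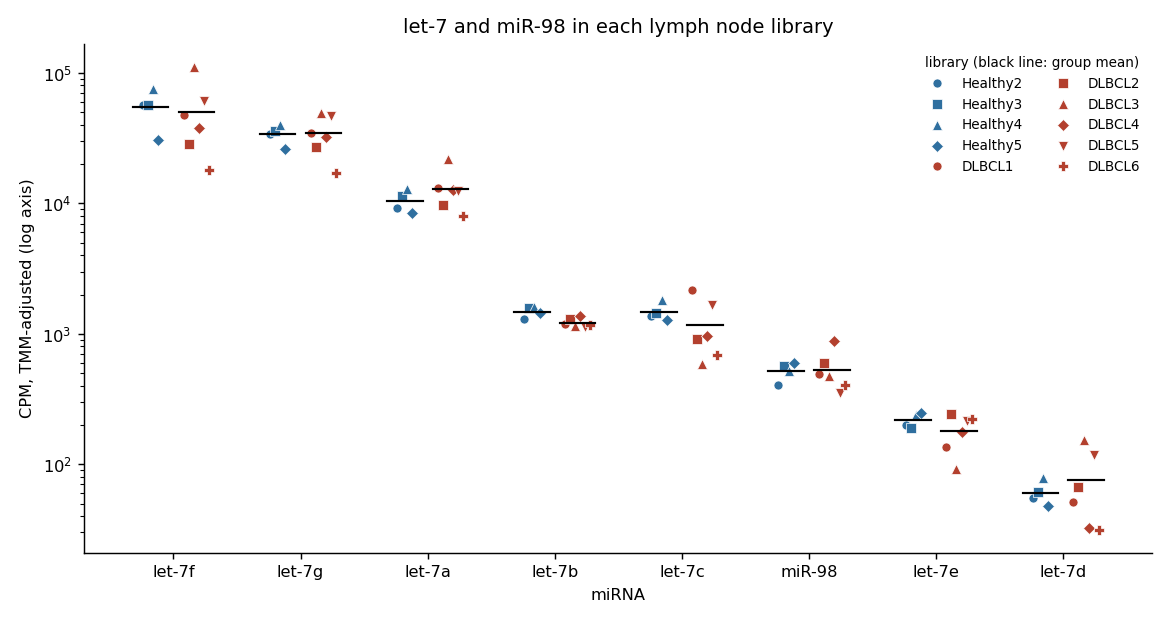
CPM (log axis) of each family member in each of the 10 libraries, healthy in blue and DLBCL in red, with a black line at each group mean. let-7f, let-7g and let-7a lie above the other 5 members in each library, the groups overlap for each member, and DLBCL3 is the highest library for let-7f, let-7g, let-7a and let-7d and the lowest for let-7c and let-7e.

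The member with the most reads was let-7f. It ranged in DLBCL nodes from 18115 CPM in DLBCL6 over a median of 42386 to 110667 CPM in DLBCL3, and was 57198, 56791, 75321 and 30517 CPM in Healthy2, Healthy3, Healthy4 and Healthy5. The DLBCL libraries thus lay on both sides of the healthy ones, with 1 above the highest and 2 below the lowest of them. The span within DLBCL was 6.11-fold, the widest of the members, and the span within healthy nodes was 2.47-fold. The log2 fold change was -0.12 (SE 0.47, 95% interval -1.13 to 0.88, edgeR adjusted p = 0.874). It was -0.48 without DLBCL3, and it turned positive in 4 of the 10 fits without a single library, to at most 0.074. By limma-voom it was -0.65 (limma-voom adjusted p = 0.169).

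let-7g, which has a gene apart from the other family members, varied less. Its DLBCL libraries reached from 17116 CPM in DLBCL6 over a median of 33452 to 49397 CPM in DLBCL3, and the healthy values were 34274, 35883, 39992 and 25979.7 CPM. DLBCL3 and DLBCL5 were above the healthy range and DLBCL6 below it. On average let-7g stood at 34525 ± 12137 CPM (SD, n = 6) among tumors, beside 34032 ± 5884 CPM (SD, n = 4) among controls. Its change of 0.02 on the log2 scale (SE 0.33, edgeR adjusted p = 0.975) had a 95% interval of 0.615-fold to 1.67-fold, which keeps it within a 2-fold change either way.

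let-7a came next in level. It was lowest among DLBCL nodes in DLBCL6, at 7993 CPM, had a median of 12530.0 CPM and reached 22010.2 CPM in DLBCL3, and was 9166, 11445, 12830.0 and 8362 CPM in the healthy nodes. DLBCL1 and DLBCL3 were above the healthy range and DLBCL6 below it. The log2 fold change was 0.31 (SE 0.34, 95% interval -0.42 to 1.04, edgeR adjusted p = 0.569), 0.13 without DLBCL3 and 0.19 without Healthy5. The mature let-7a can come from 2 annotated genes, and its reads do not tell which.

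let-7b was the only member with a raw p under 0.05 in the exact permutation test. It was 1129 CPM in DLBCL5, the lowest library, 1184 CPM at the DLBCL median and 1371 CPM in DLBCL4, the highest, and 1291, 1563, 1615 and 1442 CPM in the healthy nodes. Healthy nodes were mostly higher, in that 5 of 6 DLBCL libraries were below the lowest healthy library, although DLBCL2, at 1289 CPM, was below it only by a small margin. The log2 fold change was -0.28 (SE 0.28, 95% interval -0.89 to 0.33, edgeR adjusted p = 0.531). The two-sided exact permutation p was 0.0143, and adjusted over all miRNAs tested it was 0.131. This p fell under 0.05 for 1 of 8 members and for 23.5% of all miRNAs tested. The exact permutation p was 0.0619 with DESeq2's size factors in place of TMM. With libraries scaled to their total miRNA reads the log2 fold change turned to 0.47 (exact permutation p = 0.314), and that p was 0.205 with miR-148a left out of the totals and 0.595 with reads mapped to the genome.

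let-7c was near let-7b in level but far more uneven among the tumors. It ranged in DLBCL nodes from 591 CPM in DLBCL3 over a median of 937 to 2152 CPM in DLBCL1, and was 1364, 1439, 1829 and 1269 CPM in the healthy nodes. Of the 6 DLBCL libraries 4 were below the healthy range, DLBCL5 was within it and DLBCL1 was above it. The log2 fold change was -0.35 (SE 0.41, 95% interval -1.24 to 0.54, edgeR adjusted p = 0.622). Single libraries moved it both ways, to -0.16 without DLBCL3 and -0.19 without DLBCL6, and to -0.62 without DLBCL1.

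miR-98, which carries the family's seed under another name, was between let-7c and let-7e. Its DLBCL values went from 349.9 CPM in DLBCL5 over a median of 483 to 873 CPM in DLBCL4, and its healthy values were 408, 563, 516 and 601 CPM. The groups overlapped widely, with DLBCL4 above the healthy range and DLBCL5 and DLBCL6 below it. The log2 fold change was 0.02 (SE 0.36, edgeR adjusted p = 0.974), with a 95% interval from 0.594-fold to 1.74-fold.

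The members with the fewest reads were let-7e and let-7d. let-7e was lowest in DLBCL3, at 91.2 CPM, with a DLBCL median of 194 and a highest value of 242 CPM in DLBCL2, and was 198, 189.9, 239.6 and 247 CPM in healthy nodes. No DLBCL library exceeded the healthy maximum and 3 were below the healthy minimum, and let-7e had a log2 fold change of -0.28 (SE 0.37, edgeR adjusted p = 0.678), or -0.12 without DLBCL3. let-7d went from 31.5 CPM in DLBCL6 over 59.3 to 154 CPM in DLBCL3 and was 54.7, 61.0, 78.5 and 48.2 CPM in healthy nodes. DLBCL libraries lay on both sides of the healthy range, 2 above and 2 below, and the log2 fold change of 0.32 (SE 0.52, 95% interval -0.81 to 1.45, edgeR adjusted p = 0.732) was the least certain of the family. It was 0.02 without DLBCL3, 0.15 without DLBCL5, 0.50 without DLBCL6 and 0.58 without DLBCL4, and leaving out Healthy4 gave 0.49.

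The intervals set how far these comparisons reach. For let-7b, let-7g and miR-98 they lay inside a 2-fold change either way, and for the other 5 members they extended past a 2-fold change in at least 1 direction. In bulk tissue, fewer cells of a type and less RNA per cell cannot be told apart.

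The values differed when the Q30 groups were taken into account. In the lower Q30 group alone, which sets DLBCL4 and DLBCL6 beside the controls, the log2 fold change was -0.995 for let-7f, -0.94 for let-7d, -0.85 for let-7c, -0.47 for let-7g, -0.23 for let-7b, -0.14 for let-7e, -0.03 for let-7a and 0.28 for miR-98. Thus the log2 fold change was negative for 7 of the 8 members, where it was negative for 4 over all libraries. The members' median was -0.35, and that of the 259 miRNAs tested in this group was -0.03. The 2 DLBCL libraries were not both low for each of these members. let-7a was 12596 CPM in DLBCL4, above the healthy mean of 10451 CPM, and 7993 CPM in DLBCL6. The smallest edgeR adjusted p was 0.147, that of let-7c. The higher Q30 group held no healthy library, so it gives no comparison of its own. A fit with the Q30 group as a covariate therefore takes its difference from the same lower Q30 libraries and is no second check. It gave 1 positive and 7 negative values, and the smallest edgeR adjusted p was 0.428.

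**Figure D2:**
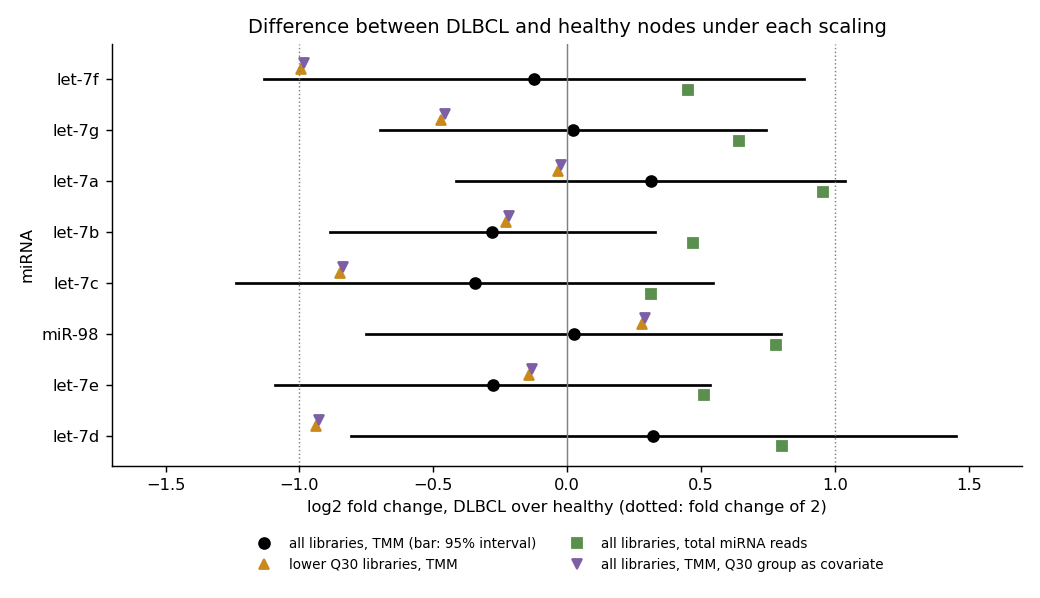
log2 fold change of DLBCL over healthy nodes for each member, with edgeR on all libraries after TMM scaling (black, bars give the 95% interval), within the lower Q30 libraries (orange), scaled to total miRNA reads (green) and with the Q30 group as a covariate (purple). Each black interval crosses 0, the green values are positive for all 8 members, and the Q30 values are negative for all members but miR-98. The orange and purple values both rest on the contrast within the lower Q30 libraries.

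The values depended on the scaling. miR-148a, the miRNA with the most reads in healthy nodes, took 31.3% ± 7.80 (SD, n = 6) of miRNA reads in DLBCL nodes and 61.0% ± 9.67 (SD, n = 4) in controls. The groups did not overlap in this share, where 13.0% of all miRNAs tested did not overlap in CPM. Scaled to total miRNA reads, the log2 fold change was positive for all 8 members with a median of 0.58, while the median of all miRNAs tested moved to 0.82, so relative to that median the members' median was lower. With miR-148a left out of the totals, 2 members were positive and 6 negative, and with reads mapped to the genome 4 were positive and 4 negative. Why the values moved was not tested beyond these changes of scaling. No member was called under any of these scalings. Of the 247 miRNAs tested, 23 were called with total miRNA reads, 14 without miR-148a in them and 7 with reads mapped to the genome. With total miRNA reads 2 members had an unadjusted edgeR p under 0.05. The smallest edgeR adjusted p of a member under these scalings was 0.0893, that of let-7a with total miRNA reads.

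Summed over its members, the family varied widely among the tumors. Its CPM ranged in DLBCL nodes from 45745 in DLBCL6 over a median of 92387 to 184527 in DLBCL3, and was 103955, 107935, 132422 and 68466 in Healthy2, Healthy3, Healthy4 and Healthy5. The healthy nodes lay inside the span of the DLBCL nodes, and the mean log2 difference was -0.13. The lower Q30 libraries alone gave -0.69, and the Q30 group as a covariate, which rests on the same contrast, gave -0.68. As a share of all miRNA reads the family took 11.5% ± 2.94 (SD, n = 6) among tumors, compared with 7.68% ± 1.80 (SD, n = 4) among controls, and 4 of 6 DLBCL libraries were above the highest healthy one, at 9.56%. The 95% Wilson intervals of these shares reached at most 0.0188 percentage points to either side and cover counting error only. Without miR-148a in the denominator the order of the means turned, to 16.9% ± 5.11 in DLBCL and 19.9% ± 2.99 in healthy nodes.

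Shares within the family do not depend on the scaling. let-7f made up 47.0% ± 7.30 (SD, n = 6) of family reads among tumors, compared with 52.3% ± 5.42 (SD, n = 4) among controls, and let-7g made up 35.7% ± 4.63 and 33.6% ± 3.21. let-7a took 13.6% ± 2.51 in DLBCL and 10.3% ± 1.45 in healthy nodes. For let-7a, 4 of 6 DLBCL libraries were above the highest healthy share of 12.2%, while DLBCL3 and DLBCL5, at 11.9% and 10.1%, were within the healthy range. The difference of the means, DLBCL minus healthy, was 3.27 percentage points for let-7a over all libraries and 5.73 within the lower Q30 group. For let-7f it was -5.30 and -10.6, for let-7g 2.13 and 3.98, and for miR-98 0.0889 and 0.404, while for let-7b it turned from -0.0383 to 0.574. let-7b took 1.47% and 1.504%, let-7c 1.30% and 1.47%, miR-98 0.634% and 0.545%, let-7e 0.235% and 0.227%, and let-7d 0.0727% and 0.0597% in DLBCL and healthy nodes. The groups overlapped in the share of each member.

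DLBCL3 had the most unusual mixture. let-7f reached its highest share there, at 60.0%, and let-7g its lowest, at 26.8%. let-7b, let-7c, let-7e and miR-98 also had their lowest shares in DLBCL3, at 0.618%, 0.320%, 0.0494% and 0.258%. A low share is not a low level, since the CPM of let-7g was highest in DLBCL3 and those of let-7b and miR-98 were lowest in DLBCL5. DLBCL6 was on the other side, with the lowest share of let-7f, at 39.6%, and the highest of let-7a, let-7b and let-7e, at 17.5%, 2.56% and 0.489%. Among healthy nodes Healthy5 had the lowest share of let-7f, 44.6%, and the highest of let-7e, 0.360%. DLBCL3 is also the library with the highest epithelial and muscle markers, and their part in its let-7 mixture was not tested.

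**Figure D3:**
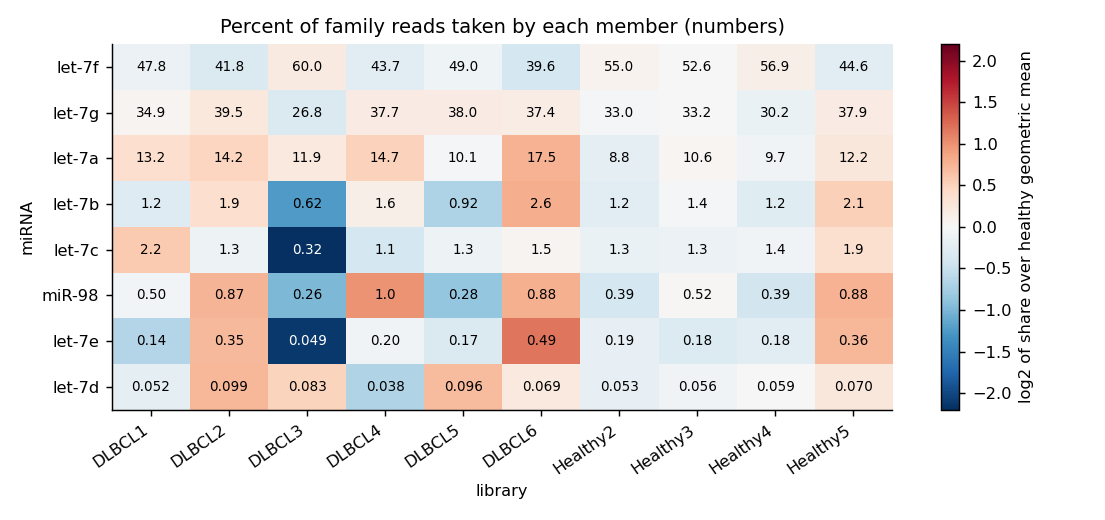
Percent of the family's reads taken by each member (printed numbers) in each library, colored by the log2 of the share over the geometric mean of the 4 healthy libraries. DLBCL3 is blue for let-7b, let-7c, let-7e and miR-98 and holds the largest let-7f share, 60.0%, and DLBCL6 holds the largest let-7e share, 0.489%.

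The order of the members by reads was nearly fixed. Reads are counted per mature miRNA and mature miRNAs are of nearly equal length, so CPM were compared between members without a length correction. The order is one of reads, since how evenly library preparation captured each sequence was not tested. let-7f exceeded let-7g, let-7g exceeded let-7a, let-7a exceeded let-7b, let-7c exceeded miR-98 and miR-98 exceeded let-7e in 10 of 10 libraries. let-7f had 1.06 to 2.24 times the reads of let-7g in DLBCL and 1.17 to 1.88 times in healthy nodes. let-7b and let-7c could not be ordered, since let-7b was the higher in 6 of 10 libraries and let-7c in DLBCL1, DLBCL5, Healthy2 and Healthy4. let-7e exceeded let-7d in 9 of 10 libraries, the exception being DLBCL3, where the ratio of let-7e to let-7d was 0.592, against 7.09 in the DLBCL library with the highest ratio.

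The members moved together more closely than pairs of miRNAs in general. The SD over the 10 libraries of the log2 ratio of 2 miRNAs, which is 0 where they rise and fall in step and does not depend on scaling, had a median of 0.62 over the 28 pairs of members. Over the 17766 pairs of the 189 miRNAs with at least 10 reads in each library the median was 1.35. No pair of members had ratios that separated DLBCL from healthy nodes without overlap, where 13.7% of all pairs did. Pairs share members and libraries, so these are descriptions without a test. The pairs were not matched for abundance. Members had at least 614 reads in each library, while the other miRNAs needed only 10, and counting error widens the ratios of rare miRNAs. Reads shifted between near-identical sequences would also move these ratios.

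Over all libraries none of the 5 closest pairs joined neighboring genes, but without DLBCL3 the neighbors let-7a and let-7b were among them, at 0.31. let-7a and let-7g, whose genes lie apart, had the smallest SD, 0.28, followed by let-7b and miR-98 at 0.32, let-7f and let-7g at 0.37, let-7b and let-7e at 0.40 and let-7d and let-7g at 0.46. The largest were those of let-7e with let-7f, at 1.08, and let-7e with let-7d, at 1.003. The plot of pairs shows no sharp blocks, since let-7b was about as near to let-7g, at 0.49, and to let-7a, at 0.50, as let-7a was to let-7d, at 0.53. Without DLBCL3 the closest pair was again let-7a and let-7g, at 0.26, while let-7c came near let-7g, at 0.32 in place of 0.64, and let-7a was nearer to let-7b and let-7c, at 0.31 and 0.40, than to let-7f, at 0.50.

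**Figure D4:**
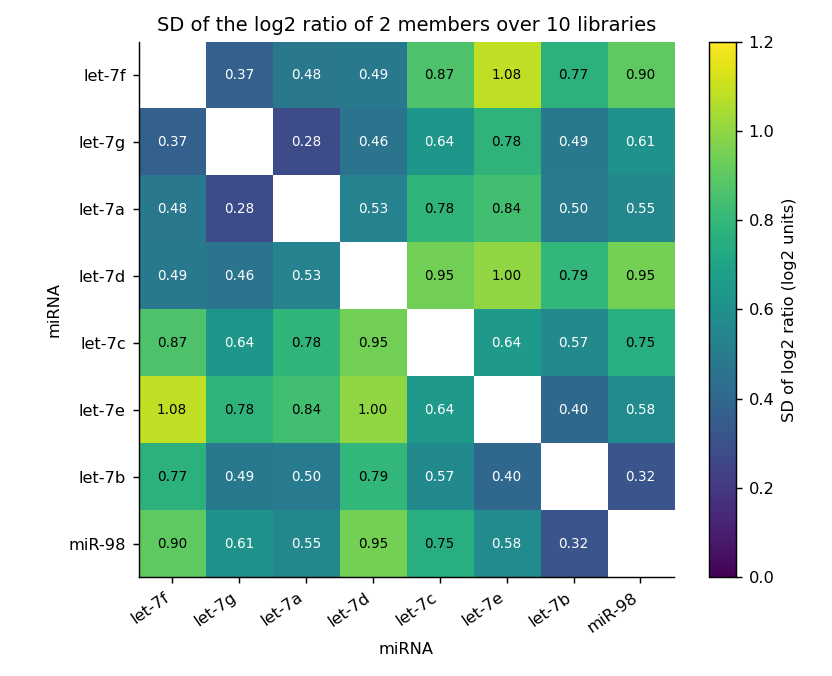
SD over the 10 libraries of the log2 ratio of each pair of members (log2 units), where dark cells are pairs that kept a steady ratio. The smallest value is 0.28 for let-7a with let-7g and the largest 1.08 for let-7e with let-7f.

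Against the sum of the other members, let-7g followed the family best, with an SD of the log2 ratio of 0.27, then let-7a with 0.35, let-7f with 0.40 and let-7d with 0.44. let-7b, at 0.60, miR-98, at 0.73, let-7c, at 0.75, and let-7e, at 0.92, followed it less closely. Placed among the 181 other miRNAs by this SD, they would rank 16, 34, 36 and 59, so many miRNAs outside the family followed it more closely. Of the 181 other miRNAs compared with the family sum in the same way the median was 1.08, and the nearest were miR-1301 at 0.43, miR-30e and miR-8884 at 0.44, miR-28 at 0.45 and miR-185 at 0.47. None of these 5 was called between DLBCL and healthy nodes, with edgeR adjusted p from 0.290 to 0.719, where 5.67% of all miRNAs tested were called. The list was chosen for steady ratios to the family sum over both groups. That choice disfavors miRNAs with a large group difference, so the lack of calls is no separate result. The list rested in part on DLBCL3, since without it the nearest were miR-26a, miR-10b, miR-30e, miR-365 and miR-8884, of which 2 were on the first list.

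All 8 members varied less among DLBCL nodes than the median miRNA. This comparison was not matched for abundance, and counting error adds to the spread of rare miRNAs. The SD of log2 CPM among the 6 DLBCL libraries was 0.11 for let-7b, 0.46 for miR-98, 0.49 for let-7a, 0.53 for let-7e, 0.56 for let-7g, 0.72 for let-7c, 0.90 for let-7f and 0.95 for let-7d, where the median of all tested was 1.07. Among healthy libraries the median of the members was 0.25 and that of all tested 0.54, and 7 of the 8 members were below it, let-7f being the exception at 0.55. All 8 members also stayed below the median of all miRNAs among DLBCL nodes under the 3 other scalings. Which member was steadiest did depend on scaling. After TMM, 0% of miRNAs tested varied less than let-7b, but the share was 17.0% with total miRNA reads, 9.31% without miR-148a in them and 11.3% with reads mapped to the genome. For let-7g it was 13.8% after TMM and 0.405%, 0.810% and 0.405% in the same order.

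**Figure D5:**
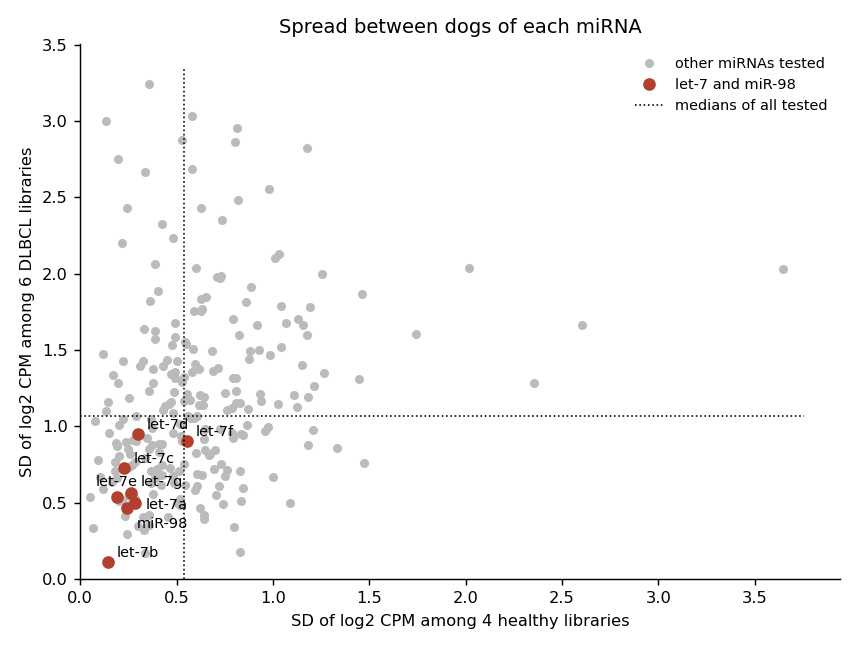
SD of log2 CPM (TMM) among the 4 healthy libraries against that among the 6 DLBCL libraries, for the 8 members (red) and the other miRNAs tested (grey), with dotted lines at the medians of all tested, 0.54 and 1.07. The members lie below the DLBCL median, and let-7b is lowest on that axis, at 0.11.

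Several family genes sit beside each other or beside miR-99 and miR-125 genes, and these neighbors were compared next. In the annotation used, which is of another build than the reads were mapped to and so serves for gene order only, let-7d and let-7f are direct neighbors, as are let-7b and 1 of the 2 let-7a genes. let-7c is flanked by a miR-99a gene and a miR-125b gene, let-7e follows miR-125a with miR-99b beyond it, and the other let-7a gene is beside another miR-99a gene. Of 5 partner miRNAs fixed for this comparison 4 were listed, miR-100 was not analysed here, and 0 of the 4 were called by edgeR (5.67% of all tested).

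After TMM scaling the miR-125 partners had lower values in each DLBCL library than in any healthy one, as 13.0% of all miRNAs did in one direction or the other, but neither passed the adjusted threshold. miR-125b, which is known to target apoptosis and differentiation genes, ranged in DLBCL from 41.4 CPM in DLBCL3 to 629 CPM in DLBCL4 and was 859.7, 746, 1516 and 1106 CPM in the controls, a log2 change of -1.42 (SE 0.55, edgeR adjusted p = 0.118). miR-125a ranged from 121 CPM in DLBCL3 to 288 CPM in DLBCL2 and was 423, 300.4, 701 and 373 CPM in the controls, a log2 change of -1.06 (SE 0.39, edgeR adjusted p = 0.114). With DESeq2's size factors the groups still did not overlap for miR-125b but did for miR-125a, and both overlapped with total miRNA reads, with miR-148a left out of them and with reads mapped to the genome. Under these scalings the mean log2 differences stayed negative, the smallest in size being -0.34 for miR-125a and -1.02 for miR-125b with total miRNA reads. The let-7 members beside them, let-7c and let-7e, overlapped between groups, as described above.

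miR-99a and miR-99b overlapped between groups. miR-99a, with a mean CPM near that of let-7f, ranged in DLBCL from 4856 CPM in DLBCL3 to 162741 CPM in DLBCL5 and from 43879 to 79033 CPM in healthy nodes (log2 fold change -0.06, SE 0.72, edgeR adjusted p = 0.972). Of its 6 DLBCL libraries 4 were below the healthy minimum, and the difference of mean log2 CPM, which weights the libraries equally, was -0.82 (two-sided exact permutation p = 0.448). miR-99b ranged from 283 to 2081 CPM in DLBCL and from 436 to 1142 CPM in healthy nodes (log2 fold change 0.49, SE 0.55, edgeR adjusted p = 0.592).

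Neighbors differed in how steady their ratios were. The SD of the log2 ratio was 0.46 for let-7e with miR-125a, 0.49 for let-7d with let-7f and 0.50 for let-7a with let-7b, and 1.42%, 1.81% and 2.04% of all pairs had a smaller one. It was 0.91 for let-7c with miR-99a (20.2% of pairs smaller), 1.08 for let-7e with miR-99b and 1.12 for let-7c with miR-125b (31.3% and 34.3%). For let-7a it was 1.63 with miR-99a and 1.73 with miR-125b, more than for 65.7% and 70.4% of pairs. DLBCL3 set the highest ratio of let-7c to miR-99a, 0.122, where DLBCL5 had 0.0102, and the highest ratio of let-7a to miR-125b, 531, where Healthy5 had 7.56. let-7a and miR-125b each come from 2 genes and miR-99a likewise, so their mature counts mix loci.

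Among the markers of other cells, the red cell and pancreas sums did not overlap between the groups after TMM scaling, while the other sums did. Of all single miRNAs tested, 13.0% did not overlap. The sum of 3 red cell miRNAs was 5171 to 35567 CPM in DLBCL and 808 to 1070.5 CPM in healthy nodes, and the sum of 3 pancreas miRNAs was 17.5 to 662 CPM in DLBCL and 914 to 1949.8 CPM in healthy nodes. The 5 stromal and vessel miRNAs overlapped, with 18867 to 70627 CPM in DLBCL and 26911 to 55304 CPM in healthy nodes, and were highest in DLBCL5. The 6 epithelial miRNAs summed to 13.4 to 199.1 CPM in DLBCL and 11.7 to 28.3 CPM in healthy nodes, with miR-200a, miR-200b and miR-205 at 0 in some libraries, and the 2 muscle miRNAs to 8.82 to 352 CPM and 14.6 to 74.6 CPM. let-7 miRNAs are made in most cell types, and the part of any of these cells in the levels of the family was not tested.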

How the data were processed

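Small RNA libraries of 10 canine lymph nodes were compared by the condition in each sample's title. Per the methods, reads were cleaned of adapters, aligned with Bowtie 0.12.9, freed of repeats and other kinds of small RNA, and assigned to mature miRBase miRNAs with miRDeep2. The authors deposited raw read counts and, beside them, TPM values, which equal counts scaled to the library total within 4.55e-05 and were used only for that check. The mapping and counting were not repeated.

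From the counts, edgeR 4.0.16 in R 4.3.3 was run with TMM and filterByExpr by group, and its quasi-likelihood test covered 247 of 320 miRNAs. Called miRNAs had a Benjamini-Hochberg adjusted p under 0.05 together with a log2 fold change above 1 in size. The biological coefficient of variation was 0.731. DESeq2 1.42.0 and limma 3.58.1 (voom with sample quality weights) were alternatives, as were other scalings, filters, the Q30 group, the replicate number as a block, and leaving out each library. Log2 CPM used a prior count of 2. Permutation tests were two-sided and exact over 210 splits, with a smallest possible p of 0.00476, and were run in Python 3.11.15 with scipy 1.17.1. The script for the fits was tested on simulated data. No 2 libraries of a group were near duplicates.

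The miRNAs named are the members, 5 genomic partners (miR-99a, miR-99b, miR-100, miR-125a, miR-125b), the 5 miRNAs whose log2 ratio to the family sum had the smallest SD, miR-148a, and marker lists for lymphoid cells, red cells, stroma, epithelium, muscle and pancreas. miR-100 and miR-133a are not analysed here. The 5 miRNAs nearest the family without DLBCL3 were added after their values were seen. Members and lists were chosen with earlier results of these data known. The scalings of spread, of the let-7b permutation test and of the partners, the lower Q30 values of shares within the family, and the runs of shares and pair ratios without single libraries were added after seeing the data. Gene order came from the RefSeq annotation of UU_Cfam_GSD_1.0, in which all 8 members matched a gene. The numbers in the titles gave correlations of -0.332 to 0.264 between same-numbered libraries and do not pair the dogs.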

Additional observations from a re-analysis of the deposited data

Results flagged for a closer look

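In 36 groups of library values tested for a library far from the others of its own group, 4 stood apart by Dixon's criterion, which chance alone meets in about 1 of 20 groups. let-7a at 22010.2 CPM in DLBCL3 lay far above the other DLBCL libraries. The let-7g share of family reads in DLBCL3, 26.8%, lay far below them, although the CPM of let-7g was highest there, at 49397. In Healthy5 the shares of family reads taken by let-7c, 1.85%, and by let-7e, 0.360%, lay far above those of the other healthy libraries. No test of a cause was made.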

How the results depend on the processing

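No member was called in any of the 22 alternatives, leaving out each library included, but over all miRNAs the calls ranged from 1 of 247 (replicate block) and 1 of 250 (without Healthy4) to 46 of 247 (limma-voom), so the absence says little where few were called. Directions were less steady. With total miRNA reads the log2 fold change turned to 0.47 for let-7b, 0.31 for let-7c, 0.51 for let-7e and 0.45 for let-7f. With the Q30 group as a covariate it turned to -0.022 for let-7a, -0.93 for let-7d and -0.46 for let-7g, and within the lower Q30 group to -0.034, -0.94 and -0.47 for the same members. Both of these Q30 alternatives take the difference from the lower Q30 libraries alone, so they are not separate checks. limma-voom turned let-7d to -0.24, let-7g to -0.23 and miR-98 to -0.039. Totals without miR-148a gave -0.16 for let-7g and -0.0026 for miR-98, a minimum of 10 reads in each library -0.15 and -0.088, and no filter -0.0066 for miR-98. Without single libraries the value ranged from -0.48 to 0.074 for let-7f, from -0.13 to 0.19 for let-7g and from -0.12 to 0.12 for miR-98. The difference of the family sum moved from -0.13 to 0.57 with total miRNA reads and ranged from -0.39 (without Healthy5) to 0.10 (without DLBCL6), and was -0.69 within the lower Q30 group and -0.68 with the Q30 covariate. The difference in the family's share of reads was 3.78 percentage points, -2.96 without miR-148a in the denominator, and -0.184 as a share of reads mapped to the genome. The cause of these moves was not tested beyond what each alternative changes. With the replicate block, in which the numbers only name the dogs, the family sum differed by 0.10 and no member was called. Each member had at least 614 reads in each library, and with 6 and 4 dogs the intervals reached past a 2-fold change for 5 members. What set the width of the intervals was not tested.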
